A study of Mus musculus with 8 samples.

Results

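The proteins that carry out and regulate mRNA splicing were followed in mouse embryonic hearts with and without *Dgcr8*. The members were chosen by gene symbol alone: all *Srsf*, *Hnrnp*, *Sf3a*, *Sf3b*, *Snrp*, *Prpf*, *U2af* and *Lsm* genes of the expression table, with symbols of pseudogenes left out. This gave 79 protein-coding genes of 24385 features in the table, and no symbol among them was listed more than once. They fell into 11 SR proteins, 20 hnRNP proteins, 12 snRNP core proteins, 9 SF3 subunits, 13 *Prpf* genes, 3 *U2af* genes and 11 *Lsm* genes. Of these, 76 reached the mean of 1 FPKM over the 8 libraries that was required for a test, as did 10018 features in all. FPKM is the fragment count of a gene scaled by its transcript length and by the mapped fragments of the library. *Hnrnpul2*, *Lsm11* and *Srsf12* did not reach it, with mean FPKM of 0.922, 0.511 and 0.112.

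Splicing removes introns from pre-mRNA and joins the exons, and it is carried out by the spliceosome, which assembles on each intron from small nuclear ribonucleoprotein particles (snRNPs) and many other proteins. Each snRNP holds a small nuclear RNA, a ring of Sm or Lsm proteins and proteins particular to that particle. SR proteins, named for their serine- and arginine-rich domains, bind exons and recruit the machinery, while hnRNP proteins coat nascent transcripts and often act against splice site choice nearby. In the developing heart, alternative splicing sets the isoforms of sarcomere and ion-handling proteins.

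Hearts were taken at embryonic day (E) 8.5, when the heart tube loops, and at E9.5, from wild type (WT) and *Dgcr8* conditional knockout (cKO) embryos, all labelled as C57BL/6. DGCR8 is the RNA-binding partner of the nuclease Drosha, and together they cut primary microRNA (miRNA) transcripts. Per the study's methods, both genotypes carried *loxP*-flanked alleles of *Dgcr8* on both chromosomes and 1 copy of the *mTmG* reporter at *Rosa26*, and the cKO embryos also carried 1 *Mesp1*-Cre allele, which the hearts labelled wild type lacked. *Mesp1* drives Cre in early mesoderm, so the deletion reaches the *Mesp1* progeny of the heart and not cells of other origin. Each of the 4 groups had 2 libraries, given in the methods as biological replicates independent of each other. The labels did not say whether a library held 1 heart or a pool.

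The targeted gene lay lower in both cKO groups without passing the test, and its FPKM covers the whole gene rather than the deleted part alone. *Dgcr8* stood at 7.10 and 8.60 FPKM in WT and at 1.64 and 4.67 in cKO at E8.5. At E9.5 it had 3.49 and 3.23 in WT and 1.15 and 1.77 in cKO (limma adjusted p = 0.59 at E8.5 and 0.32 at E9.5). All 10 cardiomyocyte markers were detected, and their summed FPKM lay between 26085 and 77661. At E8.5, 2 lists of maternal tissue varied within groups: the decidual hormone gene *Prl8a2* had 449 and 1141 FPKM in WT and 9.95 and 5104 in cKO, and the summed maternal leukocyte markers from 6.01 in cKO replicate 1 to 492 in WT replicate 1. At E9.5 *Prl8a2* lay between 0.746 and 5.09, *Prl3c1*, another decidual gene, was listed at 0 in all 4 libraries, and the leukocyte sum lay between 8.30 and 15.3. The sums of all 6 decidual markers, 758 to 6605 at E8.5 and 507 to 709 at E9.5, were mostly *Cryab* in E8.5 cKO replicate 1 (748) and at E9.5 (506 to 704), a gene that heart muscle also expresses. At E8.5 the yolk sac sums were 677 and 2112 in WT and 5520 and 1592 in cKO, and the erythroid sums 9782 and 28157 in WT and 39592 and 16610 in cKO. The absolute depth is unknown, and relative depth ranged from 1 to 1.45 across libraries.

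In E9.5 cKO hearts most splicing factors lay below WT hearts, although 0 of 76 members passed the test. The median member was 0.68 log2 units lower in the cKO, against 0.07 for the median of all 10018 genes, so that relative to the median gene it was 0.61 lower. Of the 76 members, 68 lay below the median gene. The FPKM of all members summed to 12565 and 11155 in WT and to 5679 and 6977 in cKO, so both cKO sums were below both WT sums. In bulk tissue, fewer cells of a type and less RNA per cell cannot be told apart.

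By the limma test, 0 members were called lower and 0 higher at an adjusted p under 0.05 and a change of at least 1.5-fold, against 0.00998% of all genes lower and 0.17% higher. At an unadjusted p under 0.05 and 1.5-fold, 35 members were lower, where 9.99% of all genes were, and 0 were higher, where 5.08% of all genes were. Both cKO libraries lay below both WT libraries for 55 members, against 31.1% of all genes, and above them for 1 member, *Prpf40b*, against 21% of all genes. The remaining 20 members overlapped between the groups. With 2 libraries against 2, an exact permutation test of a single gene cannot give a two-sided p below 0.333. Without E9.5 cKO replicate 1, 15 members met the unadjusted rule (4.02% of all genes), and without E9.5 WT replicate 2, 21 did (5.55% of all genes). Scaling of the libraries to the median ratio left 25 members and 1 higher, and quantile normalization left 20 and 1 higher, beside 7.43% and 7.13% of all genes lower and 8.66% and 7.33% higher.

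**Figure D1:**
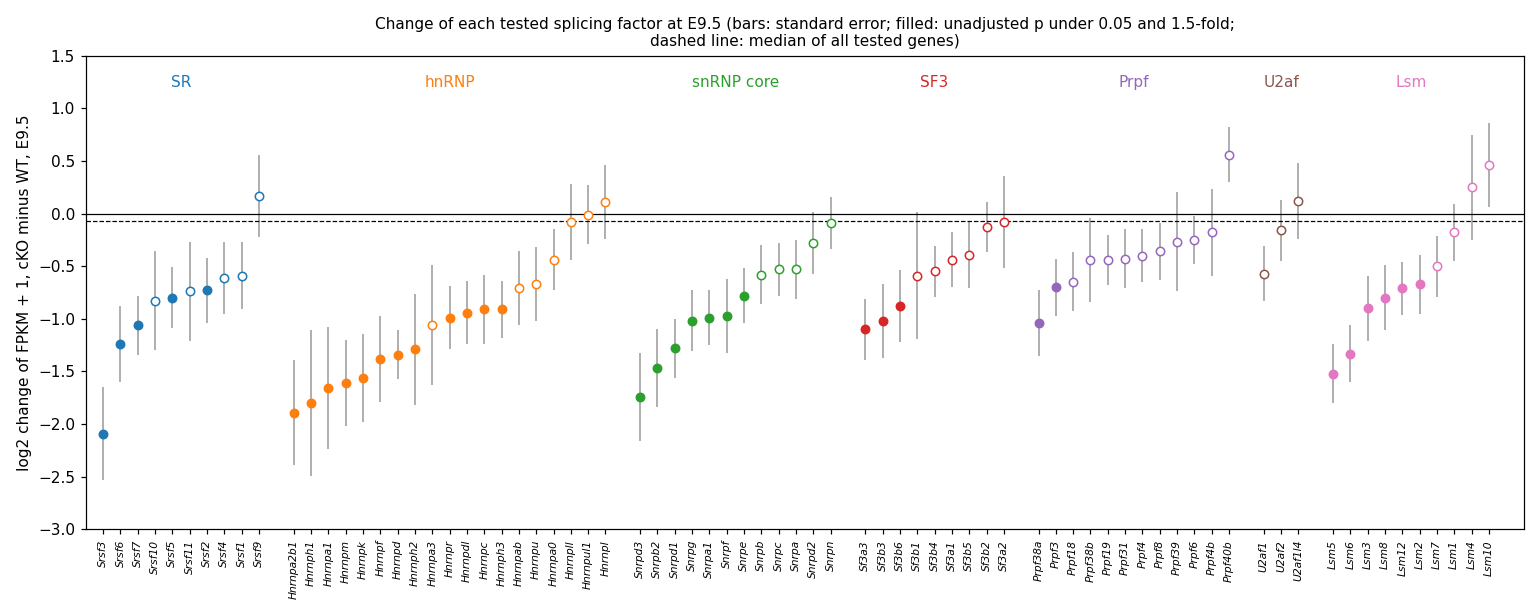
Log2 change of FPKM + 1 (cKO minus WT, E9.5, vertical axis) of 75 of the 76 tested members, ordered within families, with bars for the standard error; filled points have an unadjusted p under 0.05 and at least 1.5-fold change, and the dashed line is the median of all tested genes. The filled points, 35 in number, all lie below 0, and *Prpf40b* at 0.56 is the highest.

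The family medians ran in order of size as follows. Relative to the median gene, the median change was −0.92 for hnRNP proteins, −0.81 for snRNP core proteins, −0.70 for SR proteins, −0.62 for *Lsm* genes, −0.48 for SF3 subunits, −0.33 for *Prpf* genes and −0.09 for the 3 *U2af* genes. By the unadjusted rule, 12 of 19 hnRNP, 7 of 12 snRNP core, 5 of 10 SR, 6 of 10 *Lsm*, 3 of 9 SF3, 2 of 13 *Prpf* and 0 of 3 *U2af* genes were lower. The median stayed below the median gene in all 19 alternative settings for each family but *U2af*, which was above it in 3 of them. Against the median gene of its own library, the median SR protein stood 1.64 and 2.14 log2 units higher in the E9.5 WT libraries and 1.11 higher in both cKO libraries. For hnRNP proteins these values were 1.54 and 1.98 in WT and 1.07 and 0.89 in cKO. The families did not overlap between the genotypes at E9.5 except *Prpf* and *U2af*. Members with a mean of at least 100 FPKM met the unadjusted rule in 18 of 25 cases, and those with less in 17 of 51. Over all genes the share lower by this rule also differed with level, at 9.99% with the filter at 1 FPKM and 15.1% with the filter at 5 FPKM. It was not computed for all genes on either side of 100 FPKM.

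**Figure D2:**
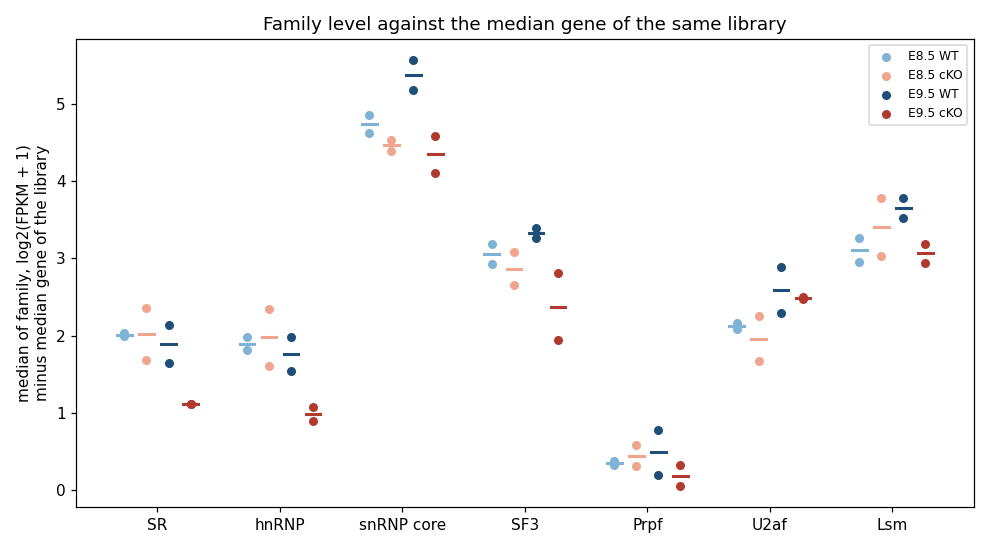
Median level of each family in each library, as log2(FPKM + 1) minus the median of all tested genes of that library (vertical axis); points are libraries, coloured by group, and bars are means of 2 libraries. The E9.5 cKO points lie below the E9.5 WT points for SR, hnRNP, snRNP core, SF3 and *Lsm* genes, as with hnRNP at 1.07 and 0.89 against 1.54 and 1.98.

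Among SR proteins, *Srsf3* was the most abundant and had the largest difference of all 76 members. SRSF3 is the smallest of the family and also acts in export of mRNA. At E8.5 its level was 330 and 317 FPKM in WT and 215 and 377 in cKO, and at E9.5 it was 240 and 384 in WT and 48.1 and 104 in cKO. The E9.5 cKO libraries thus lay apart from the other 6, and the log2 change at E9.5 was −2.09 (SE 0.44, adjusted p = 0.11). *Srsf7*, its close relative, stood at 138 and 171 in WT and 63.2 and 84.6 in cKO at E9.5 (log2 change −1.06, SE 0.28, adjusted p = 0.14). *Srsf6* had 123 and 120 FPKM in WT and 35.1 and 73.4 in cKO, and *Srsf5* had 72.0 and 101 in WT and 41.6 and 56.4 in cKO. None of these 3 overlapped between the genotypes at E9.5.

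The remaining tested SR genes were less abundant. *Srsf1*, long studied as a regulator of splice site choice, had 3.33 and 4.72 FPKM in E9.5 WT and 2.45 and 2.15 in cKO. *Srsf10* was apart in the E9.5 WT pair, at 11.9 and 34.1, and the cKO value of 12.9 fell between them. *Srsf9* was the exception in direction, with 4.42 and 1.77 in WT and 4.53 and 2.45 in cKO, and its groups overlapped (log2 change 0.17, SE 0.39).

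In the hnRNP family, the 3 most abundant members are given first. *Hnrnpk*, which binds C-rich sequences in RNA and DNA, stood at 667 and 550 FPKM in WT and 445 and 609 in cKO at E8.5, and at 621 and 872 in WT and 163 and 379 in cKO at E9.5 (E9.5 log2 change −1.56, SE 0.42, adjusted p = 0.14). *Hnrnpf*, a binder of G-rich tracts, had 360 and 445 FPKM in E9.5 WT and 104 and 227 in cKO. *Hnrnpc*, which packages nascent transcripts and binds U-rich tracts, had 262 and 258 in WT and 102 and 187 in cKO. The cKO libraries were below the WT libraries for all 3, and replicate 1 was the lower of the cKO pair each time.

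The A/B proteins, which often repress exons, included the largest difference in the family. *Hnrnpa2b1* had 258 and 401 FPKM in WT and 73.1 and 101 in cKO at E9.5 (log2 change −1.89, SE 0.50, adjusted p = 0.14). *Hnrnpa1* had 165 and 257 FPKM in E9.5 WT and 53.5 and 77.9 in cKO. At E8.5 both genes were far apart within the cKO pair, at 112 and 336 for *Hnrnpa2b1* and at 108 and 374 for *Hnrnpa1*, and the groups overlapped for both. The E8.5 WT values were 164 and 181 for *Hnrnpa2b1* and 398 and 231 for *Hnrnpa1*.

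*Hnrnpd*, which binds AU-rich elements and is better known for mRNA decay, had the smallest adjusted p of all members. It stood at 8.34 and 7.17 FPKM in WT and 2.61 and 2.31 in cKO at E9.5, with narrow spread in both groups (log2 change −1.34, SE 0.23, adjusted p = 0.085). *Hnrnph1* was of the opposite kind, with 41.0 and 150 in WT and 26.7 and 17.9 in cKO at E9.5, and with 52.2 and 175 in the E8.5 cKO pair. Its change of −1.80 had a standard error of 0.69, which rests on the spread within all 4 groups. *Hnrnpl*, *Hnrnpul1* and *Hnrnpll* differed by 0.11, −0.01 and −0.08 log2 units, with overlapping groups for each. Genes of the *Hnrnph1*, *Hnrnph2* and *Hnrnpf* group, and of the A/B group, resemble one another, and how reads matching several copies or pseudogenes were counted is not given in the sources used here.

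**Figure D3:**
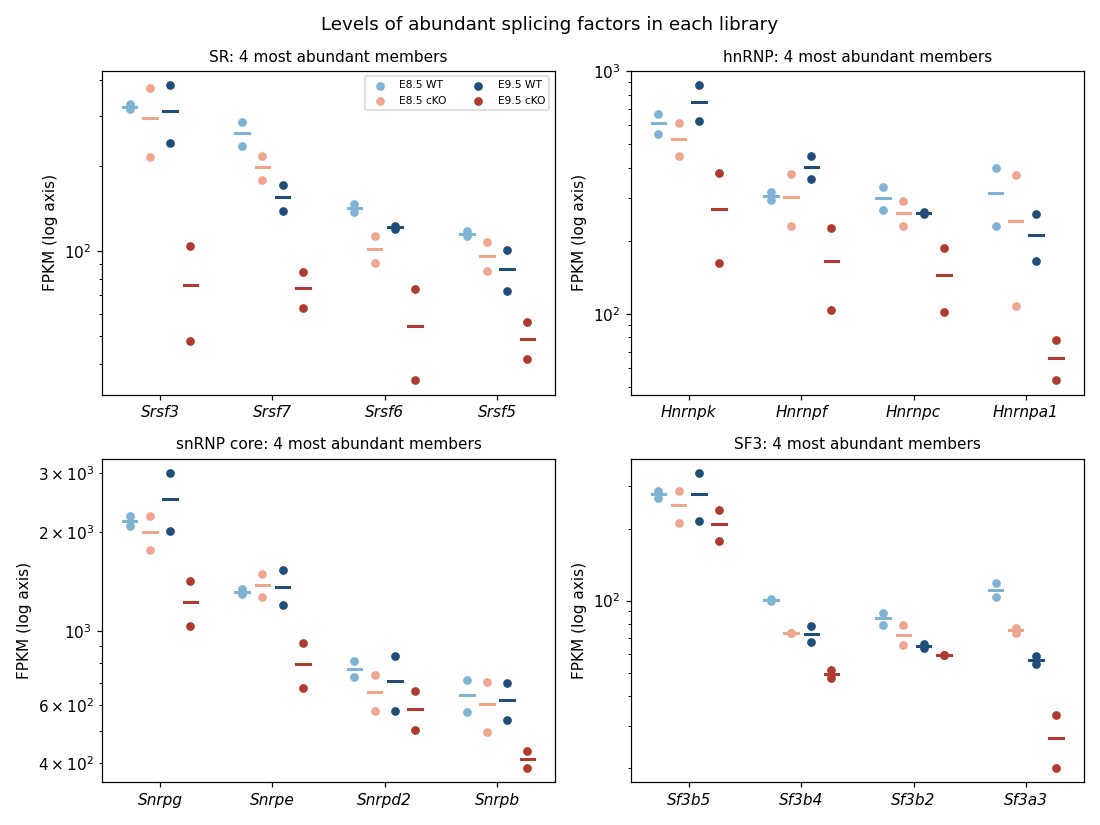
FPKM on a log axis of the 4 most abundant members of the SR, hnRNP, snRNP core and SF3 families; points are single libraries, bars are means of the 2 libraries of a group. In E9.5 cKO hearts *Srsf3* had 48.1 and 104 FPKM and *Hnrnpa1* 53.5 and 77.9, below the 6 other libraries, while *Snrpd2*, *Sf3b5* and *Sf3b2* differed by −0.28, −0.39 and −0.13 log2 units.

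The Sm proteins form the 7-membered ring that encloses the small nuclear RNA of U1, U2, U4 and U5. *Snrpg* was the most abundant member of all, at 2084 and 2233 FPKM in WT and 1766 and 2238 in cKO at E8.5, and at 3005 and 2012 in WT and 1036 and 1419 in cKO at E9.5 (E9.5 log2 change −1.02, SE 0.29, adjusted p = 0.16). *Snrpe* followed with 1531 and 1198 in WT and 675 and 922 in cKO at the later stage. *Snrpd1* had 260 and 275 FPKM in E9.5 WT and 87.8 and 137 in cKO, and its change of −1.28 (SE 0.28, adjusted p = 0.11) was among the 5 smallest p-values of the members. *Snrpd3* had the largest change of the ring, −1.74 (SE 0.42), from 243 and 181 to 53.1 and 72.5. Each of these 4 genes was separated between genotypes at E9.5.

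*Snrpd2* and *Snrpb* had the smallest differences of the ring. *Snrpd2* had 844 and 576 FPKM in WT and 661 and 503 in cKO, with overlap, and *Snrpb* had 696 and 541 in WT and 387 and 435 in cKO (log2 changes −0.28 and −0.58). Over the 7 Sm genes the median change relative to the median gene was −0.90, with 5 of 7 meeting the unadjusted rule. The products of these genes are stoichiometric partners in the assembled ring.

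The other snRNP core genes, apart from *Snrpn*, encode proteins particular to 1 particle. *Snrpa1* and *Snrpb2*, which bind the U2 RNA as a pair, differed by −0.99 (SE 0.26) and −1.47 (SE 0.37), and *Snrpb2* had 29.1 and 47.1 FPKM in E9.5 WT and 10.5 and 15.3 in cKO. *Snrpa* and *Snrpc* of U1 both had log2 changes of −0.53, with standard errors of 0.28 and 0.25. *Snrpn*, an imprinted relative of *Snrpb* made mostly in neurons and muscle, overlapped between the groups, at 34.2 and 38.5 FPKM in E9.5 WT and 32.6 and 35.2 in cKO (log2 change −0.09, SE 0.25). *Snurf* is annotated at the same positions as *Snrpn*, and reads of the 2 genes may be shared.

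The SF3A and SF3B complexes belong to U2 and clamp the branch site of the intron. *Sf3a3* had the largest change of the family: 118 and 104 FPKM in WT and 73.2 and 76.9 in cKO at E8.5, and 54.5 and 58.8 in WT and 20.0 and 33.1 in cKO at E9.5 (E9.5 log2 change −1.10, SE 0.29, adjusted p = 0.14). *Sf3b4* had 78.4 and 67.1 FPKM in E9.5 WT and 47.6 and 51.1 in cKO, and *Sf3b3* and *Sf3b6* differed by −1.02 (SE 0.35) and −0.88 (SE 0.34). Other subunits lay closer between the genotypes or varied within a group. *Sf3b2* had 66.0 and 63.5 in WT and 59.3 and 59.1 in cKO, *Sf3b5*, the most abundant, had 340 and 216 in WT and 239 and 178 in cKO, and *Sf3a2* differed by −0.08 (SE 0.44). *Sf3b1*, which holds the branch site adenosine and is the target of splicing inhibitors, was at 8.64 and 33.3 in the E9.5 WT pair, and its change of −0.59 had a standard error of 0.60. Over U2, counted as SF3, *Snrpa1* and *Snrpb2*, 5 of 11 members met the unadjusted rule.

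The *Prpf* genes encode factors of the U4/U6.U5 tri-snRNP and of later steps. *Prpf38a*, needed for activation of the spliceosome, had 25.9 and 28.8 FPKM in E9.5 WT and 9.50 and 17.1 in cKO, the largest change of the group at −1.04 (SE 0.31). The tri-snRNP genes *Prpf3*, *Prpf4*, *Prpf6*, *Prpf8* and *Prpf31* differed by −0.70, −0.40, −0.25, −0.36 and −0.43, and 1 of the 5 met the unadjusted rule. *Prpf40b* was the member above WT without overlap, with 1.95 and 1.63 in WT and 3.97 and 2.39 in cKO (log2 change 0.56, SE 0.26, adjusted p = 0.34). The U2AF proteins recognise the end of the intron: *U2af1* differed by −0.57 (SE 0.26), *U2af2* by −0.16 (SE 0.29) and *U2af1l4* by 0.12 (SE 0.36).

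The *Lsm* genes build several rings. Lsm2 to Lsm8 form the ring of U6, and the log2 change of all of these but *Lsm4* was below 0, from −0.50 for *Lsm7* to −1.52 for *Lsm5*, with 5 of 7 meeting the unadjusted rule. *Lsm5* had 320 and 306 FPKM in WT and 96.3 and 123 in cKO at E9.5 (log2 change −1.52, SE 0.28, adjusted p = 0.089), and *Lsm6* had 22.8 and 21.4 in WT and 6.67 and 9.91 in cKO (−1.33, SE 0.27, adjusted p = 0.11). *Lsm4* overlapped, with 25.3 and 13.3 in WT and 26.5 and 18.4 in cKO. *Lsm1*, which replaces Lsm8 in the cytoplasmic ring of mRNA decay, differed by −0.18 (SE 0.27). *Lsm10*, part of the U7 particle that processes histone mRNA, differed by 0.46 (SE 0.40), from 18.2 and 15.0 to 29.4 and 18.1.

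The loci of 2 members also hold a miRNA hairpin, the kind of RNA structure that the microprocessor containing DGCR8 is known to cut. RefSeq places *Mir7-1* inside *Hnrnpk* and *Mir697* inside *Sf3a3*, each on the strand of its host, among 79 member loci searched. The sequences are shown because these 2 loci hold a splicing factor gene and a miRNA hairpin in the same stretch of genome. They are written 5′ to 3′ from RefSeq on GRCm38.p6, with bases 2 to 8 of the mature miRNA, the seed, in capitals, and with the mature arms in capitals in the hairpins.
mmu-miR-7a-5p, in *Hnrnpk*, chr13:58392841-58392863, minus strand: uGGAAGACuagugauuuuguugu
mmu-miR-7a-1-3p, in *Hnrnpk*, chr13:58392800-58392821, minus strand: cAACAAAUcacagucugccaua
mmu-miR-697, in *Sf3a3*, chr4:124731768-124731788, plus strand: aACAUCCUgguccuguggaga
*Mir7-1* hairpin, chr13:58392779-58392886: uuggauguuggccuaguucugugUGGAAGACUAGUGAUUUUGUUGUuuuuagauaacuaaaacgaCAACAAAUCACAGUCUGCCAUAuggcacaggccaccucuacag
*Mir697* hairpin, chr4:124731694-124731802: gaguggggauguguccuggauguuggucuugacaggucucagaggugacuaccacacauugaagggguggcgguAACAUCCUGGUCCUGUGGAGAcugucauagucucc
The 3 mature sequences have different seeds. At E9.5 both cKO libraries lay below both WT libraries for each host gene (log2 changes of *Hnrnpk* −1.56 and of *Sf3a3* −1.10). Both miRNA genes have a row in the table (2 rows), and both are listed at 0 in all 8 libraries, so no value of the miRNAs is given. These rows are not a measure of the mature miRNAs. The study's separate miRNA sequencing of wild type E9.5 hearts listed mmu-miR-7a-5p among the most abundant miRNAs.

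Promoters were compared because the members lay lower together. RefSeq promoters on GRCm38.p6, from 250 bases before to 50 after the start, were matched by symbol for 67 of the 79 members (90 promoters) among 32851 promoters in all. Motifs were searched as exact letters on both strands. CCGGAAG, the core of ETS-family sites, was in 28.9% of member promoters and 8.86% of all promoters. GGGCGG, the GC box, was in 67.8% and 35.7%, CCAAT in 46.7% and 37.4%, AAGATGGC, part of the YY1 site, in 5.56% and 2.75%, TGACGTCA, the cAMP response element, in 3.33% and 1.79%, and CACGTG, the E-box, in 12.2% and 7.15%. The palindromic NRF1 site was in 1.11% and 0.971%, and TATAAA in 7.78% and 13.6%. Member promoters were also richer in GC, with a median of 60.3% against 52.7%. Members with CCGGAAG had a median change at E9.5 of −0.71 relative to the median gene (21 genes) and those without it −0.65 (44 genes). For CCAAT these medians were −0.80 with it (34 genes) and −0.63 without (31 genes). For AAGATGGC they were −0.37 (4 genes) and −0.73 (61 genes), and for the NRF1 site −0.67 (1 gene) and −0.69 (64 genes). The promoters of the most abundant member of each of 4 families with an entry are given, with each CCAAT box and ETS core on either strand in capitals. Other motifs are left in lower case, and an ETS core can overlap the YY1 letters.
*Srsf3*, chr17:29032410-29032709, plus strand: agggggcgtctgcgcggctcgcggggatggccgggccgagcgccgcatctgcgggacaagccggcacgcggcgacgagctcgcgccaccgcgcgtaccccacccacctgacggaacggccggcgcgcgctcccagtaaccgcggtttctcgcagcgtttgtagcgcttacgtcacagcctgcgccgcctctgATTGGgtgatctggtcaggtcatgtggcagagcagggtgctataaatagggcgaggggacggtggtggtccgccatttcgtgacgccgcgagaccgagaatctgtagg
*Hnrnpk*, chr13:58402068-58402367, minus strand: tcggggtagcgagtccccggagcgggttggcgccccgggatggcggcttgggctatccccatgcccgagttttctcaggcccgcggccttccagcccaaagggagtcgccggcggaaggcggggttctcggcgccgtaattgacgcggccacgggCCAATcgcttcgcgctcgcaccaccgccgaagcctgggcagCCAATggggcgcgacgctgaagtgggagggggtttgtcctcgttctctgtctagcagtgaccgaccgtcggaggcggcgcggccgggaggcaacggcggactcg
*Snrpg*, chr6:86371290-86371589, plus strand: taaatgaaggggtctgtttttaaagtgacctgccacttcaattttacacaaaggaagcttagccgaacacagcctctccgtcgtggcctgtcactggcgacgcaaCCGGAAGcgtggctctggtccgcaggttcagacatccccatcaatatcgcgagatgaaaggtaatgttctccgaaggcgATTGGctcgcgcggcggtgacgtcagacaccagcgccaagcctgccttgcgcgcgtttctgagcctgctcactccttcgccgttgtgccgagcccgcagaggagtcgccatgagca
*Sf3b2*, chr19:5295408-5295707, minus strand: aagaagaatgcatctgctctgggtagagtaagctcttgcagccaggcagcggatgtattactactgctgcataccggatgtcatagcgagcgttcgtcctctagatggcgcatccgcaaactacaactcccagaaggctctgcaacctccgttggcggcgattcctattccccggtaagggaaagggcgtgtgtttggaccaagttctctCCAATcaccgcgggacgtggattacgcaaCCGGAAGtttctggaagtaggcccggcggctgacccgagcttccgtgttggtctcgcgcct
All 4 hold a CCAAT sequence, and *Snrpg* and *Sf3b2* also hold CCGGAAG. *Snrpg* and *Sf3b2* lay apart in their change at E9.5, at −1.02 and −0.13.

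The GC content of the transcripts moved with the log2 changes at E9.5 and with the spread between the E9.5 WT libraries. Spearman's rho between GC content and the log2 change at E9.5 was 0.54 across the 76 members and 0.41 across all 9655 tested genes with a GC value. Between the 2 E9.5 WT libraries, the difference of replicate 2 from replicate 1 had a rho of −0.67 with GC over the members and −0.63 over all genes. The same difference in the E8.5 WT pair had the other sign, with 0.34 over the members and 0.21 over all genes. It was −0.30 and −0.34 in the E8.5 cKO pair and −0.20 and −0.18 in the E9.5 cKO pair. These points share libraries and are given as a description. The median GC content was 47.0% in members and 50.7% in all genes. Members under 45% GC met the unadjusted rule in 18 of 27 cases, with a median relative change of −0.84, and those at or above it in 17 of 49, with −0.46. The shares and medians of all genes in these GC classes were not computed, so the counts cannot be set against that background. After correction of each library for GC, 35 members were lower by the unadjusted rule, where 10.3% of all genes were, and the median member was 0.57 below the median gene.

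**Figure D4:**
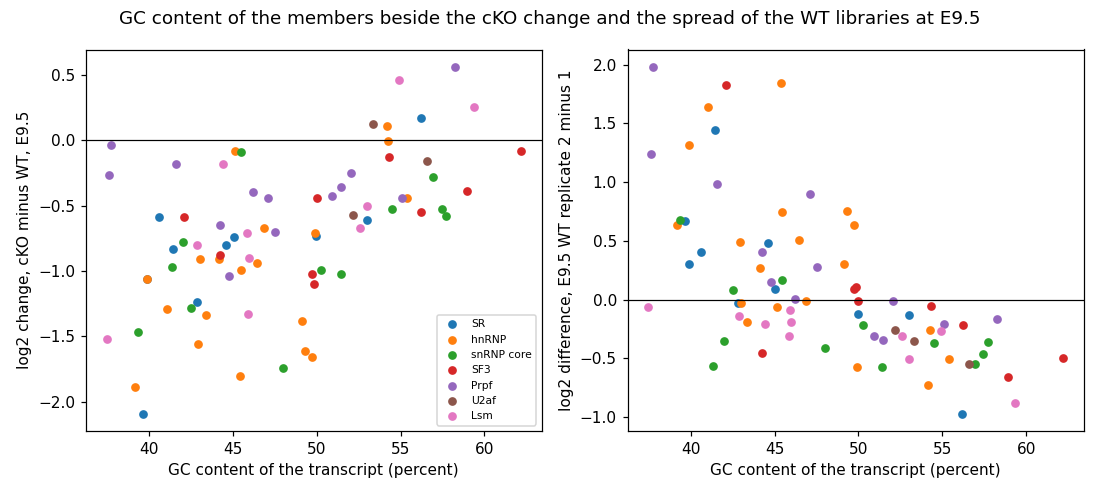
GC content of each tested member's transcript (percent, horizontal axes) against the log2 change at E9.5 (left) and against the log2 difference between the E9.5 WT libraries (right), coloured by family. Members of low GC lie low on the left (rho 0.54) and high on the right (rho −0.67).

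Marker lists of the cell types a heart sample could hold are given for E9.5, where 21% of all genes were higher and 31.1% lower without overlap. The summed FPKM of 10 cardiomyocyte markers was 57176 and 56650 in WT and 76891 and 77661 in cKO, with 5 of 10 genes higher without overlap and 1 lower. Endothelial markers summed to 118 and 110 in WT and 205 and 173 in cKO, with 4 of 8 higher without overlap and 1 lower. Erythroid markers summed to 16365 and 34098 in WT and 44970 and 33242 in cKO, with 3 of 8 higher without overlap, yolk sac markers to 5436 and 4100 in WT and 3331 and 5208 in cKO, with 2 of 9, a share near that of all genes, and the neural markers, of which 2 of 7 could be tested, to 12.7 and 10.1 in WT and 4.62 and 4.49 in cKO. Among 32 DNA replication genes, 9 were lower by the unadjusted rule (9.99% of all genes) and 0 higher, with a median of −0.38 relative to the median gene. The part of these shifts in the values of the splicing factors was not tested.

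At E8.5 the splicing factors lay near the median gene in the values as deposited. The median member was 0.35 log2 units lower in cKO hearts, and the median of all genes was 0.28 lower, which left a relative change of −0.06. Over 19 alternative settings this value ran from −0.25 without a filter to 0.09 without E8.5 cKO replicate 1, and it was −0.19 without E8.5 cKO replicate 2. By limma, 0 members were called lower (0% of all genes) and 0 higher (0.00998%), 5 were lower by the unadjusted rule, where 6.9% of all genes were, and 0 higher, where 0.24% were. Both cKO libraries were below both WT libraries for 38 members, against 40.1% of all genes, and above them for 0, against 2.54%. The family medians relative to the median gene were −0.01 for SR, 0.06 for hnRNP, −0.07 for snRNP core, −0.17 for SF3, −0.06 for *Prpf*, −0.24 for *U2af* and −0.15 for *Lsm* genes.

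The members with the smallest p at E8.5 came from several families. *Prpf19*, a ubiquitin ligase of the activated spliceosome, had 11.1 and 11.7 FPKM in WT and 6.73 and 5.56 in cKO (log2 change −0.80, SE 0.24, adjusted p = 0.59). *Snrpd3* had 163 and 329 in WT and 82.1 and 140 in cKO, *Sf3b6* had 133 and 95.4 in WT and 74.2 and 53.1 in cKO, and *Lsm6* and *Lsm1* had log2 changes of −0.66 and −0.67. *Prpf19* had a log2 change of −0.44 at E9.5 (SE 0.24). Of the members higher than the median gene, *Hnrnpll*, *Lsm7*, *Sf3b2*, *Hnrnpdl* and *Prpf40b* had log2 changes of 0.36, −0.27, −0.23, −0.28 and −0.28.

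The hnRNP median at E8.5 took its sign from the libraries used. In the E8.5 cKO pair, replicate 2 exceeded replicate 1 for each tested hnRNP gene, by 0.24 to 1.78 log2 units with a median of 0.70, and by a median of 0.50 for SR genes, against −0.10 for all genes. In the E8.5 WT pair the same difference of hnRNP genes ran from −0.78 to 0.51, with a median of −0.12. Without cKO replicate 2 the hnRNP median relative to the median gene was −0.37, and without cKO replicate 1 it was 0.46. It was also below 0 without E8.5 WT replicate 2 (−0.05) and without a filter (−0.12), and the SR median was below 0 in 10 of 19 settings. The cKO replicate 2 library had the highest level of the decidual hormone gene *Prl8a2*, 5104 FPKM against 9.95 in cKO replicate 1. Yolk sac markers summed to 5520 in cKO replicate 1 and 1592 in replicate 2, and erythroid markers to 39592 and 16610. The part of these tissues in the values was not tested.

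**Figure D5:**
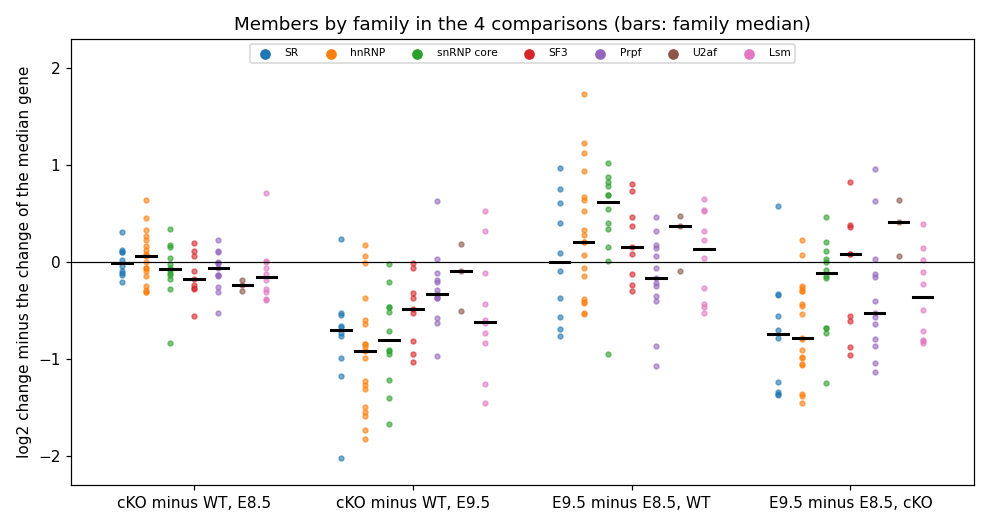
Log2 change of each tested member minus the change of the median gene (vertical axis) in the 4 comparisons, by family; bars mark family medians. The hnRNP median is 0.06 for cKO against WT at E8.5 (below 0 in 3 of 19 settings), −0.92 at E9.5, 0.21 for E9.5 against E8.5 in WT (below 0 in 2 of 19) and −0.78 in cKO.

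Between the stages of WT hearts, the splicing factors lay slightly above the median gene in the values as deposited, and below it with quantile normalization or without a filter. The log2 change of the median gene was −0.84 and that of the median member −0.66, which put it 0.17 above the median gene (0.34 with a pseudocount of 0.1). Of the 76 members, 23 were called lower, where 46.7% of all genes were, and 0 higher, where 1.4% were. By the unadjusted rule 36 were lower and 0 higher, against 57.4% and 1.93% of all genes. The snRNP core stood 0.62 above the median gene, and *Snrpg*, *Snrpe*, *Snrpd2*, *Snrpb* and *Snrpf* had log2 changes of 0.19, 0.04, −0.14, −0.05 and −0.00. With quantile or median-ratio scaling 0 members were called, and by the unadjusted rule median-ratio scaling gave 1 lower and 15 higher, where 6.82% and 11.7% of all genes were, and quantile normalization 4 and 4, where 5.08% and 8.47% were. With quantile normalization the snRNP core median was −0.26 and the median of all members −0.06.

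Among the called members that fell in WT were *Snrpn* (log2 change −1.78, adjusted p = 0.0097), *Prpf39* (−1.69, adjusted p = 0.024), *Srsf1* (−1.60, adjusted p = 0.014) and *Srsf9* (−1.53, adjusted p = 0.020). *Snrpn* went from 125 and 129 FPKM to 34.2 and 38.5, with little spread in either group. *Srsf1* went from 15.3 and 12.9 to 3.33 and 4.72. *Prpf39* varied within E9.5 WT, with 0.950 and 3.61. *Lsm6*, *Prpf6*, *Prpf31*, *Srsf7* and *Snrpa1*, the members above the median gene with the smallest p, had log2 changes of −0.80, −0.65, −0.77, −0.75 and −0.68. Without E8.5 WT replicate 1, E8.5 WT replicate 2 or E9.5 WT replicate 1, 0 members were called lower, where 0.279%, 1.84% and 0.479% of all genes were, and without E9.5 WT replicate 2, 11 were, where 22.0004% of all genes were.

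In cKO hearts the median member lay below the median gene between the stages. Its log2 change was −1.11 and that of the median gene −0.64, a relative change of −0.47. This value stayed below 0 in 19 of 19 alternative settings and ran from −0.87 without a filter to −0.21 with GC correction. It was −0.22 without E8.5 cKO replicate 2 and −0.25 without E9.5 cKO replicate 1. Of the 76, 34 were called lower, where 28.5% of all genes were, and 0 higher, where 2.05% were. By the unadjusted rule 53 were lower and 0 higher, against 42.9% and 3.25% of all genes. Those called included 10 of 19 hnRNP, 8 of 10 SR, 4 of 12 snRNP core, 3 of 9 SF3, 4 of 13 *Prpf*, 5 of 10 *Lsm* and 0 of 3 *U2af* genes. Of the called members, those that fell most were *Hnrnpu* (log2 change −2.01, adjusted p = 0.016), *Srsf1* (−2.01, adjusted p = 0.016), *Hnrnph2* (−2.00, adjusted p = 0.030), *Srsf3* (−1.99, adjusted p = 0.020) and *Srsf11* (−1.97, adjusted p = 0.023). *Hnrnpu*, a scaffold protein of the nucleus, went from 17.8 and 36.8 FPKM to 6.52 and 4.81. Members above the median gene with the smallest p were *Prpf6*, *Sf3b4*, *U2af1*, *Lsm2* and *Snrpa*, with changes from −0.56 to −0.62. With quantile or median-ratio scaling 0 members were called, and by the unadjusted rule 14 were lower and 3 higher with median-ratio scaling, where 10.8% and 14.6% of all genes were, and 23 and 3 with quantile normalization, where 10.002% and 13.7% were. Also 0 were called lower without E9.5 cKO replicate 1 and 0 without E9.5 cKO replicate 2, where 0% and 0.00998% of all genes were. Marker lists moved with both stage comparisons. Of 10 cardiomyocyte markers, 4 were called higher in WT and 3 in cKO, against 1.4% and 2.05% of all genes, with medians of 1.72 and 1.22 relative to the median gene. Yolk sac markers had medians of 1.80 and 0.80, with 2 of 9 called higher in WT and 0 in cKO. Of 8 erythroid markers, 3 were called lower and 1 higher in WT, and 0 lower and 1 higher in cKO. The 3 tested decidual genes had medians of −2.92 and −2.35, and the 6 tested leukocyte genes of −1.24 and 0.52. The part of these shifts in the values of the splicing factors was not tested. The 2 stage comparisons share no libraries with each other, but each shares a group with the genotype comparisons.

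The difference of the cKO effect between the stages was tested as the interaction of genotype and stage. By limma, 0.0399% of all genes were called in either direction and 0 of these were members; by the unadjusted rule 5 members were lower, where 1.49% of all genes were, and 0 higher, where 5.69% were. The smallest p-values were those of *Srsf3* (difference −1.91 log2 units, adjusted p = 0.65), *Hnrnpd* (−0.99, adjusted p = 0.65) and *Hnrnpa2b1* (−2.06, adjusted p = 0.67). The median difference of the members was −0.34, and relative to the median gene −0.52, with −0.89 for hnRNP, −0.81 for snRNP core, −0.68 for SR and −0.27 for SF3 genes. No member passed this test, so a difference of the cKO effect between the stages was not shown for a single gene.

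Other splicing genes, from lists outside the rule, were also described at E9.5. Over 110 tested genes of 5 lists, 30 were lower and 3 higher by the unadjusted rule, where 9.99% and 5.08% of all genes were, and 0 were called, with a median of −0.32 relative to the median gene. Among 60 further spliceosome proteins, 14 were lower and 0 higher, with a median of −0.34. Of 13 genes of the cap and exon junction complexes, 5 were lower, among them *Rbm8a* (log2 change −1.40) and *Ncbp2* (−1.39), the small subunit of the cap-binding complex.

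Sm rings are assembled onto small nuclear RNA by dedicated factors. Of 13 such genes, 7 were lower by the unadjusted rule (9.99% of all genes) and 0 higher, with a median of −0.58. *Strap*, a partner of the SMN complex, had 78.8 and 135 FPKM in E9.5 WT and 19.5 and 34.3 in cKO (log2 change −1.95, adjusted p = 0.11). *Wdr77*, which works with the methylase PRMT5 on Sm proteins, had 44.1 and 45.5 in WT and 13.4 and 21.0 in cKO, while *Prmt5* itself had 66.9 and 63.9 in WT and 49.0 and 60.0 in cKO.

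Regulators of SR proteins and of tissue-type splicing were also listed. Of 7 genes of SR protein kinases and import, 2 were lower and 1 higher by the same rule, with a median of 0.04: *Tnpo3*, the importer of SR proteins, differed by −1.21, *Srpk1* by −0.72 and *Clk3* by 0.71. Of 17 tested tissue-type regulators, 2 were lower, *Elavl1* and *Tardbp*, and 2 higher, *Rbfox2* (0.65) and *Rbm24* (0.73), with a median of 0.18. The 2 lower of 17 are 11.8% of the list, near the 9.99% of all genes, and 5.08% of all genes were higher by the same rule. *Rbm24* and *Rbm20*, regulators of sarcomere exons in heart muscle, stood at 3.86 and 3.81 in WT against 8.44 and 5.83 in cKO and at 2.21 and 2.53 against 2.92 and 2.70. By limma, 0 genes of these 5 lists were called at E9.5.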

How the data were processed

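RNA was extracted with Trizol, and 100 ng of total RNA was amplified by the Smart-seq2 protocol (the labels name the SMARTer Ultra Low kit), sequenced on a HiSeq2500 and mapped with BWA to mm9, as the study's methods state. The authors calculated and deposited FPKM per gene; the program, its annotation and any scaling between libraries are not given in the sources used here. Table positions matched GRCm38 for 91.7% of 9515 genes, so they are read as GRCm38. A few abundant short transcripts can move all other FPKM of a library, so changes are also given relative to the median gene.

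Groups came from the labels. All 24930 entries were read, 0 value columns were left out, and the 10018 features with a mean of at least 1 FPKM were tested as log2(FPKM + 1), which understates changes of low genes. limma 3.58.1 in R 4.3.3 fitted the 4 groups of 2 libraries together, with a variance trend, two-sided tests and Benjamini-Hochberg adjustment over all features. Calls required an adjusted p under 0.05 with at least 1.5-fold change. The replicates were described as biological, and the labels do not say that they came from separate embryos. On simulated data for the E9.5 comparison, 67.8% of 200 genes changed 4-fold among 10018 were called, with 7.5 false calls per simulation. Smaller changes, such as the −0.68 log2 units of the median member at E9.5, were not simulated, so the recovery at such sizes is not known. FPKM hold no counts, so no count test, counting interval or detection floor was used. GC content was that of the longest protein-coding transcript in the GENCODE reference used, for 96.4% of tested genes. For 285 repeated symbols the row of highest mean FPKM was used.

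Named genes were the 4 most abundant members of 4 families, in each comparison the called members (up to 5 by size) or otherwise the up to 5 members of smallest p on each side of the median gene, members above WT without overlap at E9.5, and 3 for the interaction. A gene that this rule names is not reported here. Others are named where their family is described, after their values were seen. Members, lists and rules were chosen with earlier results of these data known. Alternatives were other scalings, a pseudocount of 0.1, filters at 5 and 0 FPKM, no variance trend, fewer libraries, a replicate block and GC correction.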

Additional observations from a re-analysis of the deposited data

Results flagged for a closer look

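*Prpf40b* was set apart because both cKO libraries lay below both WT libraries at E8.5 (2.32 and 2.23 against 2.68 and 3.29 FPKM) and above them at E9.5 (3.97 and 2.39 against 1.95 and 1.63). The interaction of genotype and stage gave a difference of 0.84 log2 units, which did not pass the limma test (adjusted p = 0.69).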

How the results depend on the processing

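At E9.5, cKO against WT, no member was called under any setting but the omission of an E8.5 cKO library, with 1 call without replicate 1 (*Lsm5*) and 3 without replicate 2 (*Hnrnpa2b1*, *Hnrnpd*, *Lsm5*), so that leaving out a library gave 0 to 3 (0.0898% and 0.2% of all genes were called lower in these 2 settings). The median of all members relative to the median gene was −0.47 to −0.66 with a library left out and stayed below 0 throughout. The hnRNP median was −0.66 with GC correction, alone or with the replicate block, and −1.19 to −0.70 with a library left out. For E9.5 against E8.5 in WT, lower calls numbered 0 with median-ratio or quantile scaling (0.689% and 0.27% of all genes), 40 after rescaling to loci of at least 300 bp (62.8%), 14 without a filter (16.7%), and 0 to 35 with a library left out (0.279% to 58.3%). Higher calls there numbered 1 with GC correction (2.04% of all genes), 1 with GC correction and the block (1.77%) and 1 with only the 4 libraries (1.84%). In that comparison the median of all members turned to −0.06 with quantile normalization and −0.29 without a filter, the snRNP core to −0.26 with quantile normalization, and SF3 to −0.31 without a filter. For E9.5 against E8.5 in cKO, lower calls numbered 0 with either scaling (0.769% and 0.489% of all genes), 18 without a filter (5.61%), 20 with only the 4 libraries (13.9%), and 0 to 38 with a library left out (0% to 27.4%). The replicate block left 0 calls at E9.5 and 34 members at the unadjusted rule, where 10.3% of all genes were lower. It left 22 calls between stages in WT and 33 in cKO, where 45.1% and 24.4% of all genes were called lower, and changed no other count of calls. The deviations of same-numbered libraries had correlations from −0.116 to 0.195 over all genes and from −0.371 to 0.378 over the members, of both signs, so the numbers are not read as pairs. By the unadjusted rule, the settings gave 15 to 40 lower members at E9.5 (35 as reported), 0 to 12 at E8.5 (5), 1 to 48 between stages in WT (36), 14 to 61 in cKO (53) and 1 to 13 for the interaction (5). The share of all genes lower by that rule ran over the same settings from 4.02% to 15.1%, 0.849% to 23.1%, 5.08% to 68.5%, 10.002% to 48.8% and 0.439% to 5.28%. The cause of these differences was not tested. FPKM without counts limit what can be said of members with few fragments.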
